A study of Mus musculus with 8 samples.

Results

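Crypts of the library labelled VEMD2, from mice in which Setdb1 can be deleted in the intestinal epithelium, were compared with WT crypts over every gene whose mean was at least 1 FPKM across the 6 crypt libraries of the study. This rule kept 10862 of the 16958 genes with values. FPKM are fragments scaled for gene length and library size, as the authors computed them, so levels of different genes can be set side by side. The VEMD2 library is labelled setdb1 iIEC-KO. The WT library is labelled setdb1fl/fl, so that the floxed allele is carried by the controls too. Both are single libraries from C57BL/6 mice aged 8 weeks. Per the labels, Villin-CreERT2 mice and their WT littermates all received 1 dose of tamoxifen at 800 mg/kg by gavage. Tamoxifen switches CreERT2 on, and the Villin promoter limits the recombinase to epithelium, so that other cells of the gut wall keep Setdb1. VEMD3, VEMD4, VEMD6 and VEMD8 are further knockout crypt libraries of the same age and strain, with 1 library each. The labels do not spell out VEMD, and its number is used here only as a name. Whether a library came from 1 mouse or from pooled mice is not stated.

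With 1 library per group there was no test, no p-value and no replicate error, and the depth behind FPKM is unknown. Differences are therefore given by size alone, as log2 of the ratio VEMD2 over WT, with 1 FPKM added to each. A gene is called higher or lower when this ratio reached 2-fold. Adding 1 FPKM understates the difference of genes with low values.

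Setdb1 is a methyltransferase that places trimethyl marks on lysine 9 of histone H3. It is brought to the genome by zinc finger proteins with a KRAB domain through the corepressor Trim28, and is best known for silencing endogenous retroviruses and germline genes. In the small intestine, stem cells at the crypt base lie between Paneth cells, which secrete antimicrobial defensins, and their progeny divide in the upper crypt before they become absorptive enterocytes on the villus. The transcription factor p53 is held low by Mdm2, and once it accumulates it switches on genes of cell cycle arrest, DNA repair and cell death.

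Setdb1 itself was at 6.64 FPKM in VEMD2 crypts and 9.42 FPKM in WT crypts, a log2 ratio of -0.45. The value covers the whole gene and does not show whether floxed exons were lost. The 4 other knockout libraries held 3.53 to 7.03 FPKM. Markers of crypt epithelium were high. Epcam, an adhesion protein of epithelium, was at 733 FPKM in VEMD2 and 1080.2 FPKM in WT crypts, and Lyz1, the Paneth cell lysozyme, at 6844 FPKM in VEMD2 and 4233 FPKM in WT. The fibroblast collagens Col1a1, Col1a2 and Col3a1 lay at or below 0.03 FPKM in both libraries. The 33 leukocyte markers with values summed to 149.7 FPKM in VEMD2 and 174 FPKM in WT crypts, and of the 19 in the set none reached 2-fold, with a median log2 ratio of -0.08. Gzma, a protease of cytotoxic lymphocytes, gave 57.4 FPKM of this sum in VEMD2 and 85.9 FPKM in WT. The macrophage marker Adgre1 and the neutrophil markers S100a8 and S100a9 were listed at 0 in both. Other myeloid markers were present at low levels. Itgam was at 2.56 FPKM in VEMD2 and 3.48 FPKM in WT, and Cd68 at 1.95 FPKM in VEMD2 and 1.38 FPKM in WT. The 30 stromal, vascular and muscle markers summed to 17.1 FPKM in VEMD2 and 13.8 FPKM in WT, and of the 6 in the set none was past 2-fold. Enterocyte genes were abundant in both libraries, with Fabp2 at 770.2 FPKM in VEMD2 and 1586 FPKM in WT, so the crypt preparations held enterocyte transcripts. All 4 genes of the list of sex and X inactivation genes in the set are on the Y chromosome, and they differed by less than 2-fold. Cela1, an elastase listed as a pancreas marker, was at 2.79 FPKM in VEMD2 and 3.32 FPKM in WT, a log2 ratio of -0.19. The other pancreas markers with values were near 0. Cela3b was listed at 0 in both, and Ctrb1 at 0.14 FPKM in VEMD2 and 0 FPKM in WT. The mitochondrial genome genes had no values.

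In VEMD2 crypts 265 genes (2.44%) were higher and 260 genes (2.39%) were lower than in WT crypts, together 4.83% of the set. These shares over all genes are the background for each count of list members below. The median log2 ratio of all genes was 0.09, and 82.3% of genes lay within 1.5-fold of WT. At 4-fold or more 35 genes were higher and 33 lower. The higher genes had a median level of 10.3 FPKM in VEMD2 and 3.09 FPKM in WT, and the lower genes a median level of 9.35 FPKM in VEMD2 and 30.2 FPKM in WT. Among the 890 genes whose mean of VEMD2 and WT was 100 FPKM or more, 11 were higher and 40 were lower. At any size of difference, 58.6% of the set lay above WT. Of the higher genes 62 were under 1 FPKM in WT, and such genes entered the set only through their level in knockout libraries. Just outside the filter lay Rfx3, at a mean of 0.995 FPKM, with 1.33 FPKM in VEMD2 and 0.76 FPKM in WT. Just inside it lay Smarcd3, with 1.13 FPKM in VEMD2 and 2.68 FPKM in WT.

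**Figure D1:**
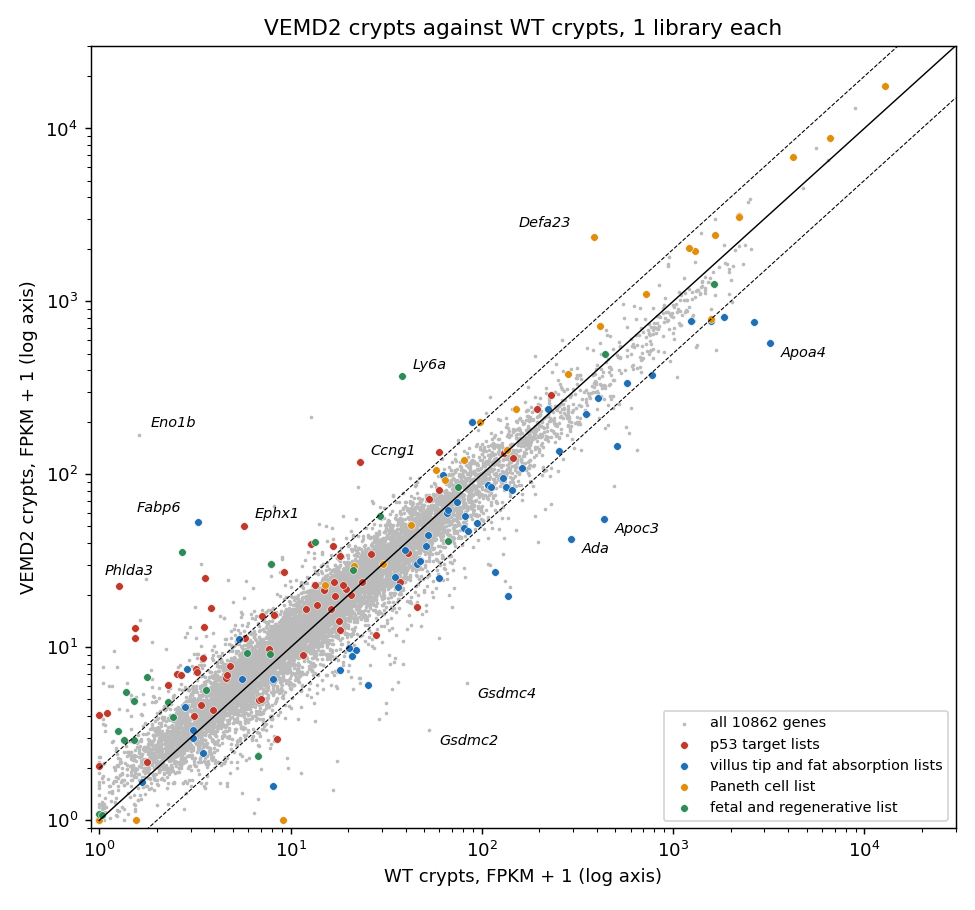
FPKM + 1 of 10862 genes in VEMD2 crypts (vertical, log axis) against WT crypts (horizontal, log axis), 1 library each, with members of 4 groups of gene lists coloured; the solid line marks equal values and the dashed lines 2-fold. Targets of p53 such as Phlda3 and Ccng1 lie above the upper dashed line, and Apoc3, Ada and Gsdmc2 below the lower one.

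Of all lists, the p53 targets of arrest and feedback had the highest median. Targets of p53 gave 7 of the 20 genes with the highest ratio among named genes at a mean of at least 5 FPKM over VEMD2 and WT. Over 3 lists of p53 targets, 63 members were in the set, of which 24 were higher and 3 were lower. Of all genes in the set 2.44% were higher and 2.39% lower. Several higher members, such as Phlda3, Plk2 and Eda2r, were under 1 FPKM in WT. Those members entered the set only through knockout libraries, so the counts and medians are not independent of the filter. The lists were drawn up with earlier results of these data known, so their direction is not independent evidence.

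The list of arrest and feedback targets had 21 members in the set, with 11 higher, 1 lower and a median log2 ratio of 1.19, against 0.09 over all genes. With 5 FPKM added in place of 1 FPKM, the median was 0.68, and 9 were higher. Phlda3, which restrains Akt signalling, was at 21.6 FPKM in VEMD2 and 0.27 FPKM in WT, a log2 ratio of 4.15. Plk2, a kinase of the centrosome cycle and the stress response, was at 11.9 FPKM in VEMD2 and 0.53 FPKM in WT. Both were at similarly low levels in WT and in VEMD6 and VEMD8, where neither passed 0.63 FPKM. Ccng1, the cyclin G1 gene, was at 116 FPKM in VEMD2 and 21.98 FPKM in WT, a log2 ratio of 2.35. Gdf15, a secreted stress cytokine, was at 10.3 FPKM in VEMD2 and 0.54 FPKM in WT. Trp53inp1, which promotes p53 activity and autophagy, was at 15.98 FPKM in VEMD2 and 2.84 FPKM in WT. Cdkn1a, the p21 inhibitor of cyclin-dependent kinases, was at 201 FPKM in VEMD2 and 87.6 FPKM in WT. Mdm2, the ligase that limits p53, was at 37.4 FPKM in VEMD2 and 15.7 FPKM in WT. The log2 ratios of Cdkn1a and Mdm2, 1.19 and 1.20, were the smallest of the 11. Sesn2, Gtse1, Zmat3 and Rnf169 were the others. Ccng2, a cyclin gene that FoxO factors also drive, was the member that was lower, at 16.1 FPKM in VEMD2 and 44.99 FPKM in WT. The p53 gene itself, Trp53, was at 71.5 FPKM in VEMD2 and 51.8 FPKM in WT, short of 2-fold.

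Among 17 targets of cell death in the set 7 were higher and none was lower, with a median log2 ratio of 0.48. With 5 FPKM added, 3 of them were higher. Bax, which opens the outer mitochondrial membrane, was at 134 FPKM in VEMD2 and 58.7 FPKM in WT, a log2 ratio of 1.17. Bbc3, the BH3-only protein Puma, was at 6.16 FPKM in VEMD2 and 2.24 FPKM in WT, while Pmaip1, the BH3-only protein Noxa, was at 13.3 FPKM in VEMD2 and 17.02 FPKM in WT. The death receptors were likewise mixed. Eda2r, a receptor of ectodysplasin A2, was at 3.09 FPKM in VEMD2 and listed at 0 in WT, and Tnfrsf10b, the TRAIL receptor, was at 14.2 FPKM in VEMD2 and 6.06 FPKM in WT. Fas, the receptor of Fas ligand, was at 11.6 FPKM in VEMD2 and 17.1 FPKM in WT, a log2 ratio of -0.52. Aen, an apoptotic nuclease, Tnfrsf12a, the Tweak receptor, and Pidd1, a scaffold of caspase 2, were the others that were higher, with log2 ratios of 1.62, 1.94 and 1.31.

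Of 25 targets of metabolism and repair 6 were higher and 2 lower, with a median of 0.35, and with 5 FPKM added 2 were higher and 1 was lower. Ephx1, the microsomal epoxide hydrolase, was at 49.6 FPKM in VEMD2 and 4.70 FPKM in WT, a log2 ratio of 3.15. Psrc1, a microtubule protein of the spindle, was at 24.2 FPKM in VEMD2 and 2.55 FPKM in WT. Polk, a translesion DNA polymerase, was at 5.89 FPKM in VEMD2 and 1.68 FPKM in WT. Inka2, Dyrk3 and Zfp365 were also higher. Ddb2, which recognises ultraviolet damage, was not, at 4.02 FPKM in VEMD2 and 6.03 FPKM in WT. Sphk1, a sphingosine kinase, and Aldh4a1, an enzyme of proline breakdown, were lower, with log2 ratios of -1.52 and -1.26.

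VEMD2 was not the library with the highest p53 targets. Ccng1 was at 116 FPKM in VEMD2, 174 FPKM in VEMD3, 121 FPKM in VEMD4, 22.7 FPKM in VEMD6, 22.8 FPKM in VEMD8 and 21.98 FPKM in WT. Ephx1 was at 49.6 FPKM in VEMD2, 89.03 FPKM in VEMD3, 56.4 FPKM in VEMD4, 2.42 FPKM in VEMD6, 1.35 FPKM in VEMD8 and 4.70 FPKM in WT. All 24 higher p53 targets were highest in VEMD3. For Ccng1 and Ephx1, VEMD6 and VEMD8 lay near or under WT. All ratios to WT rest on the same WT library.

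**Figure D2:**
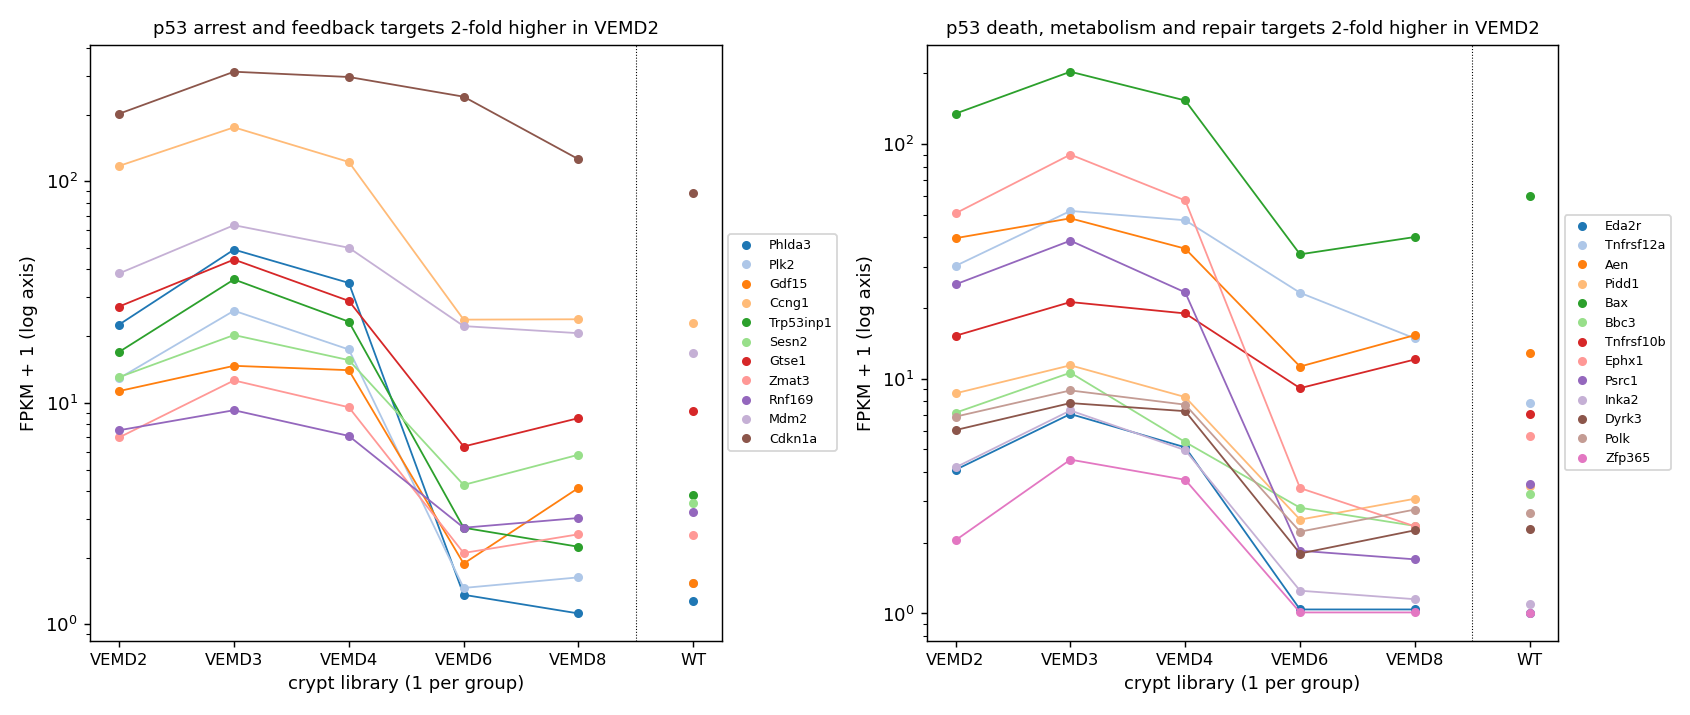
FPKM + 1 (log axis) of the 24 p53 targets at least 2-fold higher in VEMD2 than WT, in the 5 knockout crypt libraries and WT, with 1 point per library and lines joining knockout libraries; left, arrest and feedback targets, right, targets of death, metabolism and repair. All 24 are highest in VEMD3, as with Ccng1 at 174 FPKM, while in VEMD6 and VEMD8 Phlda3 and Ccng1 lie near WT and Cdkn1a lies above it.

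Promoters of the p53 targets were read for the p53 response element because many of these genes were higher together. The element consists of 2 copies of a 10-base motif with at most 1 base between them, a match needed at least 17 of its 20 bases on either strand, and the window was the 250 bases before the start site in RefSeq GRCm38.p6. It was found in 9 of 53 listed p53 targets with a promoter sequence (16.98%), and in 245 of 8804 genes of the set (2.78%). Among the p53 targets it was found in 5 of 21 that were higher (23.8%) and in 4 of 32 that were not (12.5%). The lists were built from known targets, so a share above that of all genes is not independent of how they were chosen. Of the 203 higher genes with a sequence 9 held a match (4.43%), and of the 206 lower genes 3 did (1.46%). Of the 4 targets with a match that were not higher, Rps27l, a ribosomal protein paralogue, had 19 matching bases, as many as Ccng1 and Cdkn1a, and a log2 ratio of 0.34. The strongest matches of higher targets are shown, 5′ to 3′ on the strand of the gene, with the matching element in capitals.
Ccng1, chr11:40755287-40755536, minus strand: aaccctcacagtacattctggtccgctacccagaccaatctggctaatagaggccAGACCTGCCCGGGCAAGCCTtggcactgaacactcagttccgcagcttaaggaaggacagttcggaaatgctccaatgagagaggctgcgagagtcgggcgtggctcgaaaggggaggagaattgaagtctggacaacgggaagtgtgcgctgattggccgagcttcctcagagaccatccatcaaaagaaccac
Cdkn1a, chr17:29090729-29090978, plus strand: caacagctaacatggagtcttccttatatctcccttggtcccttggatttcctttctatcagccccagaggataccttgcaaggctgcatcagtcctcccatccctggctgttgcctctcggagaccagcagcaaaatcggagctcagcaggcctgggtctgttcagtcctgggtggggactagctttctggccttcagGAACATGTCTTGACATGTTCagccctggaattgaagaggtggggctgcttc
Bax, chr7:45466899-45467148, minus strand: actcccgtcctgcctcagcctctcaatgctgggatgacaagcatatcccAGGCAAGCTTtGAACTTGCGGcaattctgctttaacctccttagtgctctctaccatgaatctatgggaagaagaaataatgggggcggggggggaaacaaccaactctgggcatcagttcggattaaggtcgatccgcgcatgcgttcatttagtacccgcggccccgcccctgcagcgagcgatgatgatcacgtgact
Zfp365, chr10:67912663-67912912, minus strand: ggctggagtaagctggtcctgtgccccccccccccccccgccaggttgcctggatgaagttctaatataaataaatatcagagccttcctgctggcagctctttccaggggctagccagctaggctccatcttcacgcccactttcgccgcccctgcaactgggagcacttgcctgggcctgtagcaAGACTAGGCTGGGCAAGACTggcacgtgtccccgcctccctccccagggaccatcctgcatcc
The Ccng1 and Cdkn1a elements match at 19 bases and those of Bax and Zfp365 at 18. A match is a description of letters and does not show binding.

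Genes of DNA replication and mitosis lay above WT by small steps. Of 37 in the set 33 were above WT, against 58.6% of all genes, and 2 reached 2-fold, with a median log2 ratio of 0.34. With 5 FPKM added none reached it. Ccne2, cyclin E2 of the entry into S phase, was at 14.1 FPKM in VEMD2 and 5.61 FPKM in WT, and Rrm2, a subunit of ribonucleotide reductase, at 63.2 FPKM in VEMD2 and 29.7 FPKM in WT. All 10 Mcm genes in the set, which include the subunits of the replicative helicase, were above WT with a median of 0.64. Birc5, which encodes the mitotic protein survivin, was 1 of the 4 below WT, at 92.6 FPKM in VEMD2 and 123 FPKM in WT. Among 32 genes of DNA damage signalling and repair 30 were above WT and 1 was higher, with a median of 0.35. Msh6, a mismatch recognition subunit, was at 40.1 FPKM in VEMD2 and 14.4 FPKM in WT, a log2 ratio of 1.42.

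Partners of Setdb1 and other H3K9 methyltransferases showed a similar small offset, with 23 of 25 above WT, 2 higher and a median of 0.39. Resf1, which recruits Setdb1 to retroelements in mouse stem cells, was at 48.1 FPKM in VEMD2 and 15.5 FPKM in WT, a log2 ratio of 1.57. Zfp809, a KRAB zinc finger protein that binds proviral DNA, was at 29.2 FPKM in VEMD2 and 13.7 FPKM in WT. Atf7ip, which protects Setdb1 from degradation, was at 18.7 FPKM in VEMD2 and 9.06 FPKM in WT. Ehmt2, the G9a methyltransferase, was at 34.9 FPKM in VEMD2 and 35.02 FPKM in WT.

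Of 35 germline and early embryo genes with values 5 were in the set, and 1 of these was higher. Members such as Khdc1a and Stag3 were under 1 FPKM in WT. They entered the set only through knockout libraries, so the count is not independent of the filter. Khdc1a, a KH domain gene of oocytes and early embryos, was at 4.99 FPKM in VEMD2, 25.3 FPKM in VEMD3, 69.6 FPKM in VEMD4, 12.5 FPKM in VEMD6, 29.9 FPKM in VEMD8 and 0.16 FPKM in WT. It shares 43.5% of its 50-base stretches with other transcripts, so its reads may be divided among copies. Tex19.1, a germline gene of transposon control, was at 0.20 FPKM in VEMD2 and listed at 0 in WT, against 4.54 to 19.9 FPKM in the 4 other knockout libraries. Of the clustered protocadherins and neural genes 1 was in the set, Pcdhgc3, at 2.50 FPKM in VEMD2 and 0.70 FPKM in WT. Pcdhgc3 too entered the set only through knockout libraries.

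Most sensing and interferon genes were within 2-fold of WT. Of 16 genes of nucleic acid sensing 1 was higher, Sting1, the adaptor of cytosolic DNA sensing, at 9.18 FPKM in VEMD2 and 2.99 FPKM in WT. The median of that list was 0.01, or -0.04 with VEMD2 rescaled to its median gene. Of 52 interferon-stimulated genes 5 were higher and none lower, with a median of 0.14, and with 5 FPKM added 2 were higher. Over all genes in the set, with 1 FPKM added, 2.44% were higher and 2.39% lower. Mx1, a GTPase that blocks viral replication, was at 6.66 FPKM in VEMD2, 20.6 FPKM in VEMD3, 36.4 FPKM in VEMD4, 2.20 FPKM in VEMD6, 2.15 FPKM in VEMD8 and 1.58 FPKM in WT, so that VEMD4 was the highest. Cxcl10, Isg20, Oas2 and Bst2 were the other 4, with log2 ratios of 1.54, 1.45, 1.30 and 1.13.

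Genes of antigen presentation were mostly below WT, with 18 of 20 below WT, 3 past 2-fold and a median of -0.50. Over the whole set 4467 of 10862 genes lay below WT, and 2.39% were lower. Many members of this list were above 100 FPKM. Among all genes whose mean of VEMD2 and WT was 100 FPKM or more, the median was -0.15. The part of expression level in the list median was not tested. B2m, the light chain of class I molecules, was at 987 FPKM in VEMD2 and 2041 FPKM in WT. H2-Q1 and H2-Q2, class Ib heavy chains, had log2 ratios of -1.20 and -1.10.

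Of 20 genes of necroptosis and death receptor signalling 2 were higher, against 2.44% of all genes, with a median of -0.03. Ripk3, the necroptosis kinase, was at 61.7 FPKM in VEMD2 and 40.8 FPKM in WT, and Mlkl, the pore-forming effector, at 27.97 FPKM in VEMD2 and 20.5 FPKM in WT, both short of 2-fold. Tnf and its receptor Tnfrsf1b were the higher genes, with log2 ratios of 1.06 and 1.15.

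The genes furthest below WT were gasdermins of the C group. In the list of gasdermins, inflammasome and apoptosis effectors 6 of 25 were lower and none higher, with a median of -0.20. Gsdmc2 was at 2.32 FPKM in VEMD2 and 51.8 FPKM in WT, Gsdmc4 at 5.19 FPKM in VEMD2 and 82.5 FPKM in WT, and Gsdmc3 at 0.49 FPKM in VEMD2 and 15.6 FPKM in WT. VEMD2 held more of all 3 than the other knockout libraries, of which none passed 0.23 FPKM. They are the 3 genes of the set in chr15:63824328-63912319 and share 39.0% to 51.3% of their 50-base stretches with other genes, so reads may be divided among them. Casp4, the caspase that senses cytosolic lipopolysaccharide, Casp6, an executioner caspase, and Pycard, the inflammasome adaptor, were the other lower genes, with log2 ratios of -1.18, -1.34 and -1.12.

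Most stem cell markers of the crypt base were within 2-fold of WT. Of 28 in the set 3 were higher and none lower, with a median of 0.39, and with 5 FPKM added none was higher. The share of higher genes over the whole set was 2.44% with 1 FPKM added. Lgr5 was at 1.60 FPKM in VEMD2 and 2.10 FPKM in WT, and Olfm4 at 479.9 FPKM in VEMD2 and 574 FPKM in WT. The higher members were Tert, the telomerase reverse transcriptase, Msi1, an RNA-binding protein, and Ephb3, a guidance receptor, with log2 ratios of 1.32, 1.19 and 1.04. Of 16 genes of transit amplifying cells and Wnt targets 4 were higher and none lower, with a median of 0.40, and with 5 FPKM added 2 were higher. Etv4, an ETS factor, was at 12.1 FPKM in VEMD2 and 1.98 FPKM in WT, Tcf7, a Wnt effector, at 8.20 FPKM in VEMD2 and 2.13 FPKM in WT, and Cd44 at 34.5 FPKM in VEMD2 and 11.4 FPKM in WT. Etv5 was the other.

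Paneth cell genes held the largest gains in FPKM. Of 28 in the set 21 were above WT, 2 were higher and 1 was lower, and the median log2 ratio was 0.49. Together the Paneth list summed to 52326 FPKM in VEMD2 and 36307 FPKM in WT. Lyz1 was at 6844 FPKM in VEMD2 and 4233 FPKM in WT, and Defa17, a defensin, at 17679 FPKM in VEMD2 and 12801 FPKM in WT. Defa17 shares 91.95% of its 50-base stretches with other transcripts and Defa35, also among the largest gains, 59.9%, so these levels may hold reads of several defensins. Of the 10 largest gains in FPKM 5 were genes with a symbol and 5 had an identifier without a name here, and these 10 held 33.3% of all FPKM gained. Defa23 was the outstanding one by ratio, at 2345 FPKM in VEMD2, 699.6 FPKM in VEMD3, 174 FPKM in VEMD4, 378 FPKM in VEMD6, 307 FPKM in VEMD8 and 385 FPKM in WT. It shares 94.8% of its 50-base stretches with other transcripts, so its own level is uncertain. The lower member was Defa20, listed at 0 in VEMD2 and at 8.16 FPKM in WT, with 100% of its stretches shared.

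Genes of other secretory cells were mostly within 2-fold of WT. Of 25 goblet cell and mucus genes 2 were higher, Guca2a, the guanylin precursor, at 596 FPKM in VEMD2 and 261 FPKM in WT, and Muc2, the gel-forming mucin, at 226 FPKM in VEMD2 and 104 FPKM in WT. The median of the list was 0.25. Other abundant members lay on both sides of WT, with log2 ratios of 0.59 for Agr2, 0.45 for Clca1, -0.38 for Tff3 and -0.60 for Zg16. Of 21 enteroendocrine genes 1 was higher, with a median of 0.27. It was Reg4, at 200.2 FPKM in VEMD2 and 97.3 FPKM in WT, which also stands in the Paneth list. Hormone genes lay on both sides of WT, with log2 ratios of 0.91 for Gcg, 0.62 for Tac1, -0.39 for Cck and -0.62 for Ghrl. Of 4 tuft cell genes none reached 2-fold, and the median was 0.34.

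Many enterocyte genes were lower, and of all lists the villus tip had the lowest median. In bulk crypts fewer cells of a type and less RNA per cell cannot be told apart. Of 21 villus tip genes in the set 11 were lower and 1 was higher, with a median log2 ratio of -1.02. Of all genes 2.39% were lower and 2.44% higher. Among the 890 genes at a mean of 100 FPKM or more over VEMD2 and WT, 40 were lower and 11 higher. The part of expression level in the enterocyte lists was not tested. Ada, adenosine deaminase, was at 41.4 FPKM in VEMD2, 199 FPKM in VEMD3, 622 FPKM in VEMD4, 700.1 FPKM in VEMD6, 213 FPKM in VEMD8 and 291 FPKM in WT. Enpp3, an ectonucleotide pyrophosphatase, was at 18.9 FPKM in VEMD2 and 136 FPKM in WT, a log2 ratio of -2.79. Apoa4, an apolipoprotein of chylomicrons, was at 574 FPKM in VEMD2 and 3196 FPKM in WT. Klf4, a factor of differentiation and arrest, was at 24.3 FPKM in VEMD2 and 58.6 FPKM in WT. The member that was higher was Cdkn1a, which is also a p53 target. Over the same WT library, the list's median was -1.02 for VEMD2, -0.46 for VEMD3, 0.51 for VEMD4, 0.74 for VEMD6 and 0.01 for VEMD8, so VEMD2 had the lowest of the 5.

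The fat absorption and chylomicron list had 37 genes in the set, with 8 lower, 3 higher and a median of -0.55. The shares over all genes were 2.39% lower and 2.44% higher. Apoc3, an inhibitor of lipoprotein lipase, was at 54.3 FPKM in VEMD2 and 432 FPKM in WT, a log2 ratio of -2.97. Apoa1 was at 763 FPKM in VEMD2 and 2643 FPKM in WT, Fabp2, a fatty acid binding protein, at 770.2 FPKM in VEMD2 and 1586 FPKM in WT, and Rbp2, a retinol binding protein, at 817 FPKM in VEMD2 and 1856 FPKM in WT. Cd36, a fatty acid transporter, was at 0.57 FPKM in VEMD2 and 7.09 FPKM in WT and was under 1 FPKM in every knockout library. Apoa1, Apoc3 and Apoa4 are the 3 genes of the set in chr9:46228630-46243458. Fabp6, the ileal bile acid binding protein, went the other way, at 51.7 FPKM in VEMD2, 8.19 FPKM in VEMD3, 5.54 FPKM in VEMD4, 0 FPKM in VEMD6, 0.38 FPKM in VEMD8 and 2.27 FPKM in WT.

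Of 29 villus bottom genes and brush border hydrolases 11 were lower and 1 was higher, with a median of -0.62. Over the whole set 2.39% of genes were lower and 2.44% higher. Treh, which splits trehalose, was at 10.3 FPKM in VEMD2 and 58.9 FPKM in WT, Ace, a peptidase, at 33.6 FPKM in VEMD2 and 128 FPKM in WT, and Alpi, the intestinal alkaline phosphatase, at 61.96 FPKM in VEMD2 and 214 FPKM in WT. Sis, the sucrase-isomaltase, was at 217 FPKM in VEMD2 and 170.4 FPKM in WT, so the list did not move as one. Of 19 genes that differ along the gut 2 were higher and 2 lower, with a median of -0.37. The ileal bile acid genes Fabp6 and Slc10a2 were higher. Slc10a2 was at 3.10 FPKM in VEMD2 and 0.65 FPKM in WT, a log2 ratio of 1.31. Other bile acid genes of the list were not higher, with log2 ratios of -0.51 for Slc51a, -0.76 for Slc51b and 0.14 for Nr1h4. Lct, lactase, and Car4, a carbonic anhydrase, were lower, with log2 ratios of -1.40 and -1.66. Whether the pieces of gut sampled differed between the libraries was not tested. Of 19 epithelial markers 2 were lower, Krt20 and Cldn4, with a median of -0.41.

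**Figure D3:**
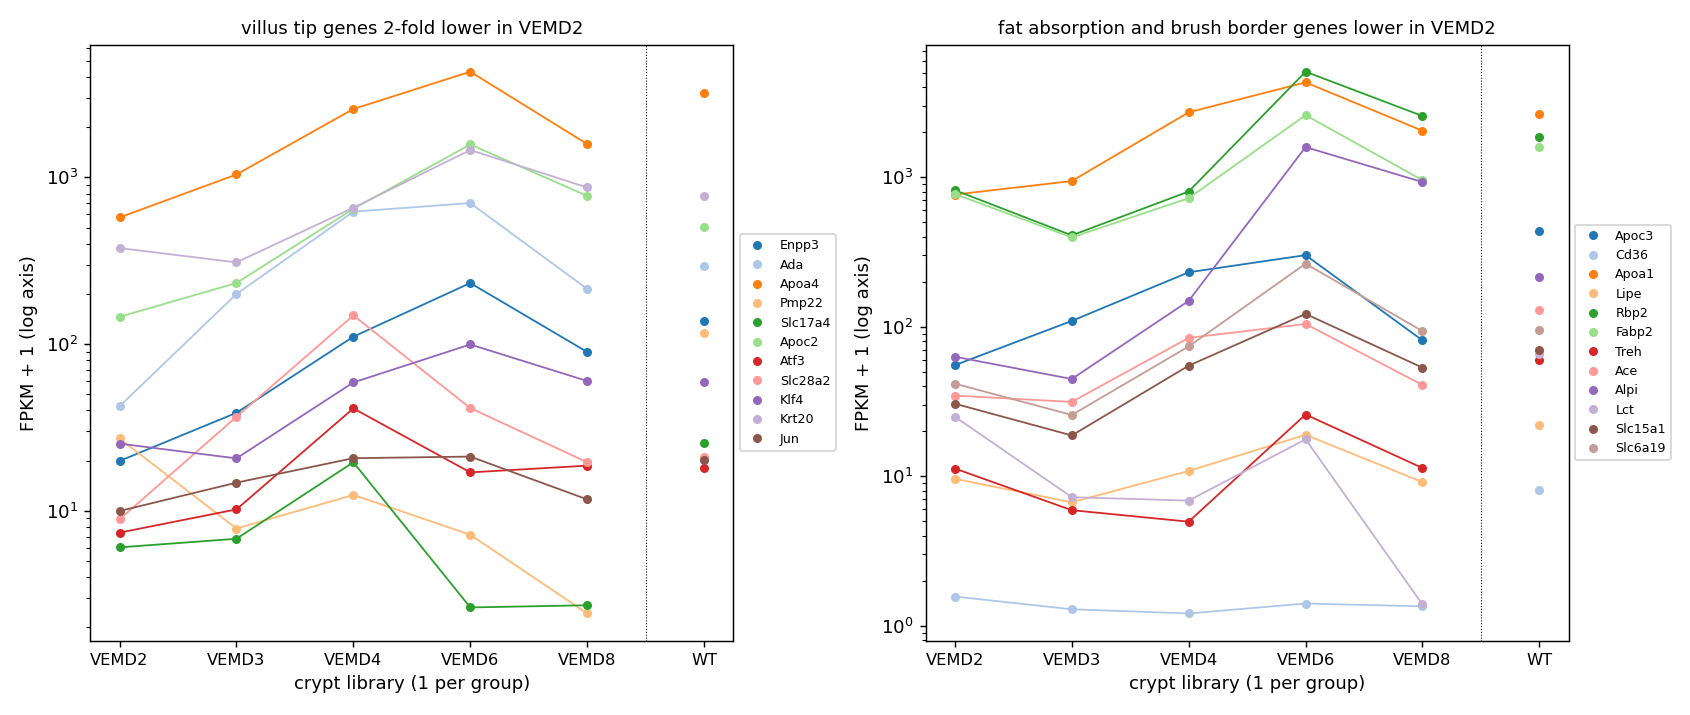
FPKM + 1 (log axis) of villus tip genes (left) and of fat absorption and brush border genes (right) that were at least 2-fold lower in VEMD2 than WT, in the 5 knockout crypt libraries and WT, with 1 point per library and lines joining knockout libraries. Ada lies at 41.4 FPKM in VEMD2, below all 5 other libraries, and many genes are highest in VEMD6.

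Drug oxidation and glutathione genes lay on both sides of WT. Of 57 in the set 13 were lower and 4 higher, with a median of -0.31. Over all genes 2.39% were lower and 2.44% higher. Ugt1a1, a bilirubin-conjugating transferase, was at 16.1 FPKM in VEMD2 and 69.3 FPKM in WT, and Cyp3a11, a cytochrome P450, at 7.63 FPKM in VEMD2 and 34.03 FPKM in WT. The alcohol dehydrogenases Adh1, Adh4 and Adh6a were all lower. The glutathione transferases Gsta3, Gsta1 and Gsta4 were higher, with Gsta3 at 13.4 FPKM in VEMD2 and 0.63 FPKM in WT, and so was Hmox1, heme oxygenase, at 2.37 FPKM in VEMD2 and 0.46 FPKM in WT. Not all enzymes of this kind lay on that side. Gstk1 was lower, at 8.16 FPKM in VEMD2 and 19.6 FPKM in WT, and Mgst3, Gstm2, Gstt1 and Mgst1 had log2 ratios of -0.84, -0.78, -0.50 and -0.40. Gsta1 shares 90.5% and Ugt1a1 58.2% of their 50-base stretches with other transcripts, so their reads may be divided among copies. Ugt1a6a and Ugt1a7c had log2 ratios of 0.80 and -0.15. Cholesterol and sterol synthesis had 0 of 30 genes past 2-fold and a median log2 ratio of 0.04, or -0.02 with VEMD2 rescaled to its median gene.

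Genes of fetal and regenerative epithelium were mostly above WT, with 10 of 24 higher, 1 lower and a median of 0.83. Of all genes in the set 2.44% were higher and 2.39% lower. Several higher members, such as Clu, Ereg and Plaur, were under 1 FPKM in WT. Such genes entered the set only through knockout libraries, so the count and median are not independent of the filter. With 5 FPKM added, 4 were higher, none was lower and the median was 0.36. Ly6a, which marks revival-type epithelium, was at 368 FPKM in VEMD2 and 37.3 FPKM in WT. Ly6d, its neighbour in the same gene cluster, was at 34.7 FPKM in VEMD2 and 1.72 FPKM in WT. Clu, a chaperone of injured epithelium, was at 4.55 FPKM in VEMD2, 40.6 FPKM in VEMD3, 77.2 FPKM in VEMD4, 14.9 FPKM in VEMD6, 9.47 FPKM in VEMD8 and 0.38 FPKM in WT, with the most in VEMD4. The growth factors Areg and Ereg had log2 ratios of 1.59 and 1.70. Sprr1a was the lower member, at 1.36 FPKM in VEMD2 and 5.72 FPKM in WT.

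Of 39 genes of heat shock and the unfolded protein response 4 were higher and 1 lower, with a median of 0.42. The shares over all genes were 2.44% higher and 2.39% lower. The higher chaperones were Hspa1b, at 23.6 FPKM in VEMD2 and 3.69 FPKM in WT, Hspa1a, at 11.2 FPKM in VEMD2 and 1.89 FPKM in WT, and Hsph1, at 83.9 FPKM in VEMD2 and 21.5 FPKM in WT. Hspa1a and Hspa1b share 60.4% and 62.3% of their 50-base stretches with other transcripts, so reads could be counted for either. Sesn2, the other, is also a p53 target. The paired heat shock letters GAANNTTC or TTCNNGAA were searched on both strands, and 12.1% of the promoters of the set held them. The promoters of Hspa1b and Hsph1 are printed as examples from the higher chaperones, with the letters in capitals.
Hspa1b, chr17:34959239-34959488, minus strand: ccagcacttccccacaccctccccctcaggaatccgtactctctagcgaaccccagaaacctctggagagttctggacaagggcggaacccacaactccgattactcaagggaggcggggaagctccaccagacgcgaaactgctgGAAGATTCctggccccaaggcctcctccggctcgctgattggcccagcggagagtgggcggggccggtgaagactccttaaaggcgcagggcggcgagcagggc
Hsph1, chr5:149636337-149636586, minus strand: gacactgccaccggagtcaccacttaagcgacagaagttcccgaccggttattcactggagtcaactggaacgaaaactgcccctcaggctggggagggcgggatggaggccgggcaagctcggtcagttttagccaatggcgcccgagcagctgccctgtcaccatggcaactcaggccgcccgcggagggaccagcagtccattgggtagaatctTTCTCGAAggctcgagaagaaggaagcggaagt
Both hold the letters within 250 bases of the start site, 96 bases before it in Hspa1b and 25 in Hsph1.

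Of 25 immediate early genes 1 was higher and 5 lower, with a median of -0.23, and with 5 FPKM added 1 was lower. Egr1 was at 23.1 FPKM in VEMD2 and 4.84 FPKM in WT, whereas Fos was at 30.7 FPKM in VEMD2 and 46.5 FPKM in WT, and Jun, Atf3, Klf4, Socs3 and Fosb were the lower ones. Of 20 genes of cytokines, chemokines and mucosal defence 2 were higher and 3 lower, with a median of -0.33. Lif, a cytokine of the interleukin 6 family, was at 6.87 FPKM in VEMD2 and 2.32 FPKM in WT. Reg3b, an antimicrobial lectin, was at 525 FPKM in VEMD2 and 1687 FPKM in WT, and Pigr, which carries antibodies across epithelium, at 544 FPKM in VEMD2 and 1311 FPKM in WT.

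**Figure D4:**
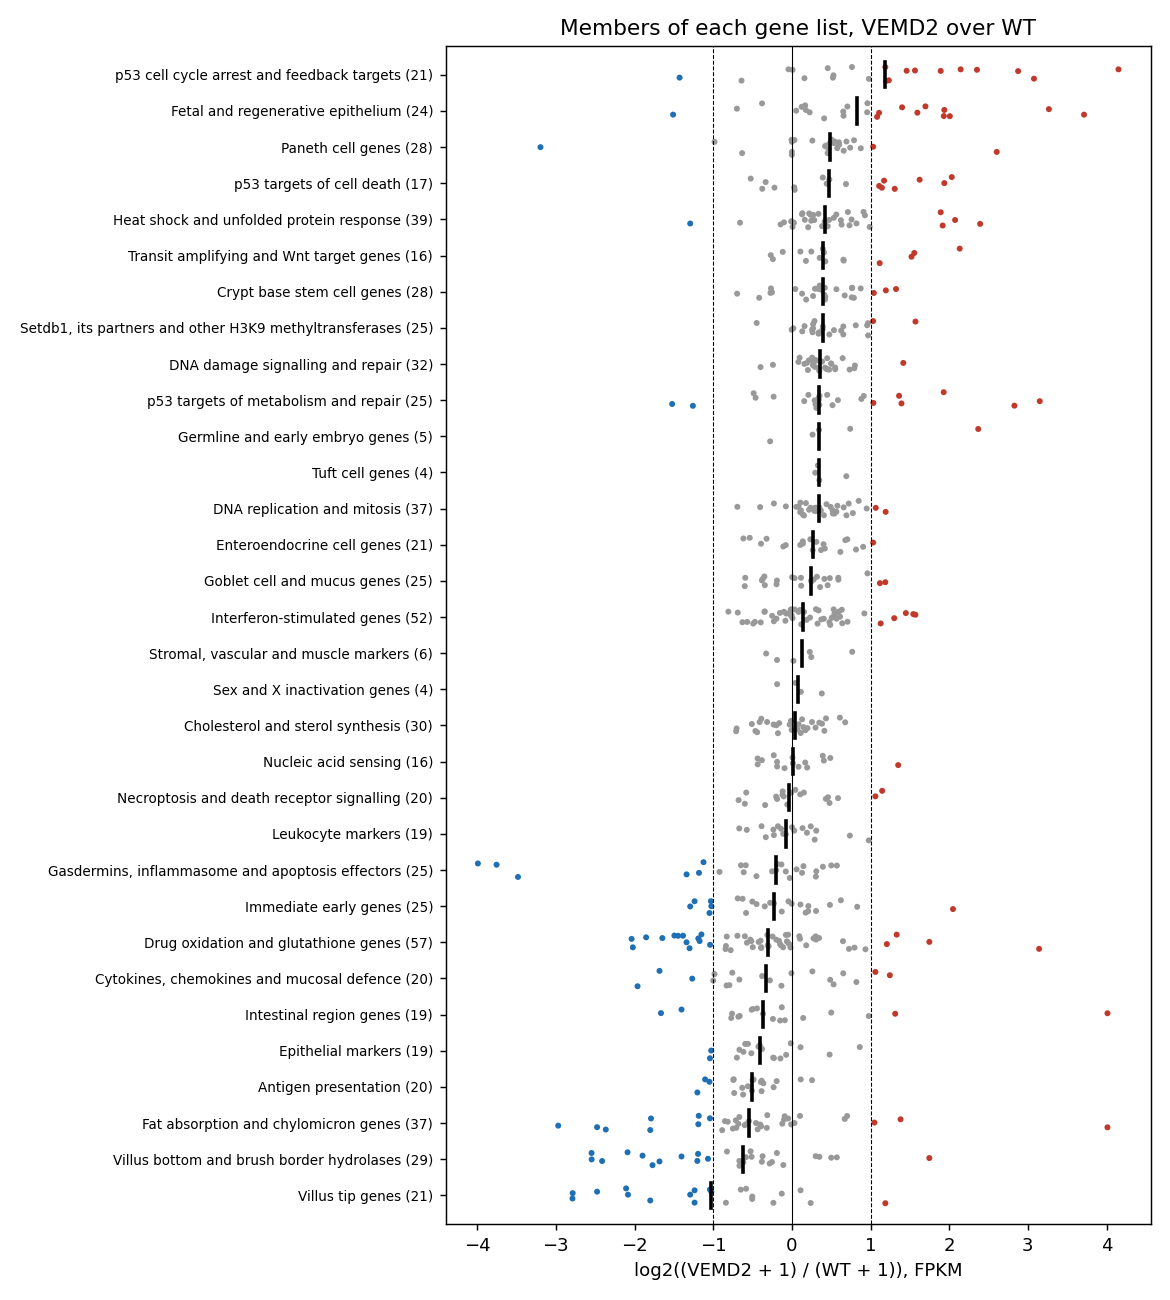
Log2 ratio of VEMD2 over WT after 1 FPKM was added to each (horizontal) for the members of each gene list in the set (rows, with the number of members), with a bar at the median and dashed lines at 2-fold. The p53 arrest and feedback list lies highest at 1.19 and the villus tip list lowest at -1.02.

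Genes seen in VEMD2 alone were few. Above each of the 5 other libraries by 2-fold lay 5 genes (0.046%), and below each of them lay 10 genes (0.0921%). The same counts were 1 above and 1 below for VEMD3, 73 and 6 for VEMD4, 53 and 26 for VEMD6, 23 and 25 for VEMD8, and 68 and 62 for WT. The 5 above were Fabp6, Defa23, Plb1, Gm4841 and a gene with no symbol here, identifier 13219. Plb1, a brush border phospholipase, was at 3.82 FPKM in VEMD2 and 0.88 FPKM in WT, with the gene 13219 at 213 FPKM in VEMD2 and 11.8 FPKM in WT. The 10 below were Ada, Sprr2a1, Sprr2a3, Ly6m, Clca4a, Gprc5a, Camk2b, AA467197, Slc28a2 and Eaf2. Clca4a was at 21.4 FPKM in VEMD2, 62.1 FPKM in VEMD3, 429 FPKM in VEMD4, 81.9 FPKM in VEMD6, 64.2 FPKM in VEMD8 and 139 FPKM in WT. Sprr2a3, a cornified envelope protein, was at 241 FPKM in VEMD2 and 603 FPKM in WT, and 2644 to 2941 FPKM in VEMD4 and VEMD6. Sprr2a1 shares 96.3%, Sprr2a3 61.1%, Clca4a 37.1% and Slc28a2 35.4% of their 50-base stretches with other genes, so their reads may be divided among copies.

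Some of the genes furthest from WT belong to none of the lists. Eno1b, an enolase copy, was the highest of all by ratio, at 169 FPKM in VEMD2 and 0.62 FPKM in WT, while Eno1 was at 252 FPKM in VEMD2 and 356 FPKM in WT. It shares 85.2% of its 50-base stretches with other genes, so its reads may belong elsewhere, and the same holds for Eif3j2 at 91.9%. Cd84, a receptor of the SLAM family, was at 29.4 FPKM in VEMD2 and 2.41 FPKM in WT, and Mboat1, an acyltransferase of phospholipids, at 64.4 FPKM in VEMD2 and 7.15 FPKM in WT. Ddah1, which breaks down methylated arginine, was at 10.2 FPKM in VEMD2 and 0.52 FPKM in WT. Among the lower genes, Trim38 was at 1.21 FPKM in VEMD2 and 16.5 FPKM in WT, Car2, a carbonic anhydrase, at 2.83 FPKM in VEMD2 and 28.1 FPKM in WT, Arg2, the mitochondrial arginase, at 23.2 FPKM in VEMD2 and 131 FPKM in WT, and Selenop, a selenium transport protein, at 138 FPKM in VEMD2 and 646 FPKM in WT.

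Many genes were also higher in a pair of chromosome regions that were chosen after their values were seen. Of all genes in the set 2.44% were higher. Most of the higher genes of these regions, such as Zfp990 and Gm3488, were under 1 FPKM in WT. Such genes entered the set only through knockout libraries, so the counts are partly fixed by the filter. In chr4:145510759-147585201 (GRCm38), 5 of 7 genes of the set were higher. Zfp982 was at 8.52 FPKM in VEMD2 and 0.19 FPKM in WT and Zfp990 at 6.74 FPKM in VEMD2 and 0.04 FPKM in WT. Zfp991 was at 11.7 FPKM in VEMD2 and 10.7 FPKM in WT, and Zfp992 at 4.90 FPKM in VEMD2 and 4.82 FPKM in WT. Zfp990 was at 7.43 FPKM in VEMD3, 13.3 FPKM in VEMD4, 0.10 FPKM in VEMD6 and 6.41 FPKM in VEMD8, so VEMD6 alone among the knockout libraries was near WT. Of the 5 higher genes, Zfp987 shares 89.0%, Gm13212 56.8%, Zfp990 29.1%, Zfp985 15.9% and Zfp982 11.9% of their 50-base stretches with other genes, so their values are not fully separate measurements. In chr14:4023941-7568566 all 8 genes of the set were higher, with a median of 1.71 and the greatest ratio in Gm3488, at 5.22 FPKM in VEMD2 and 0.40 FPKM in WT. Between 84.1% and 95.1% of the 50-base stretches of these 8 genes occur in other genes, so the 8 values are not separate measurements.

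**Figure D5:**
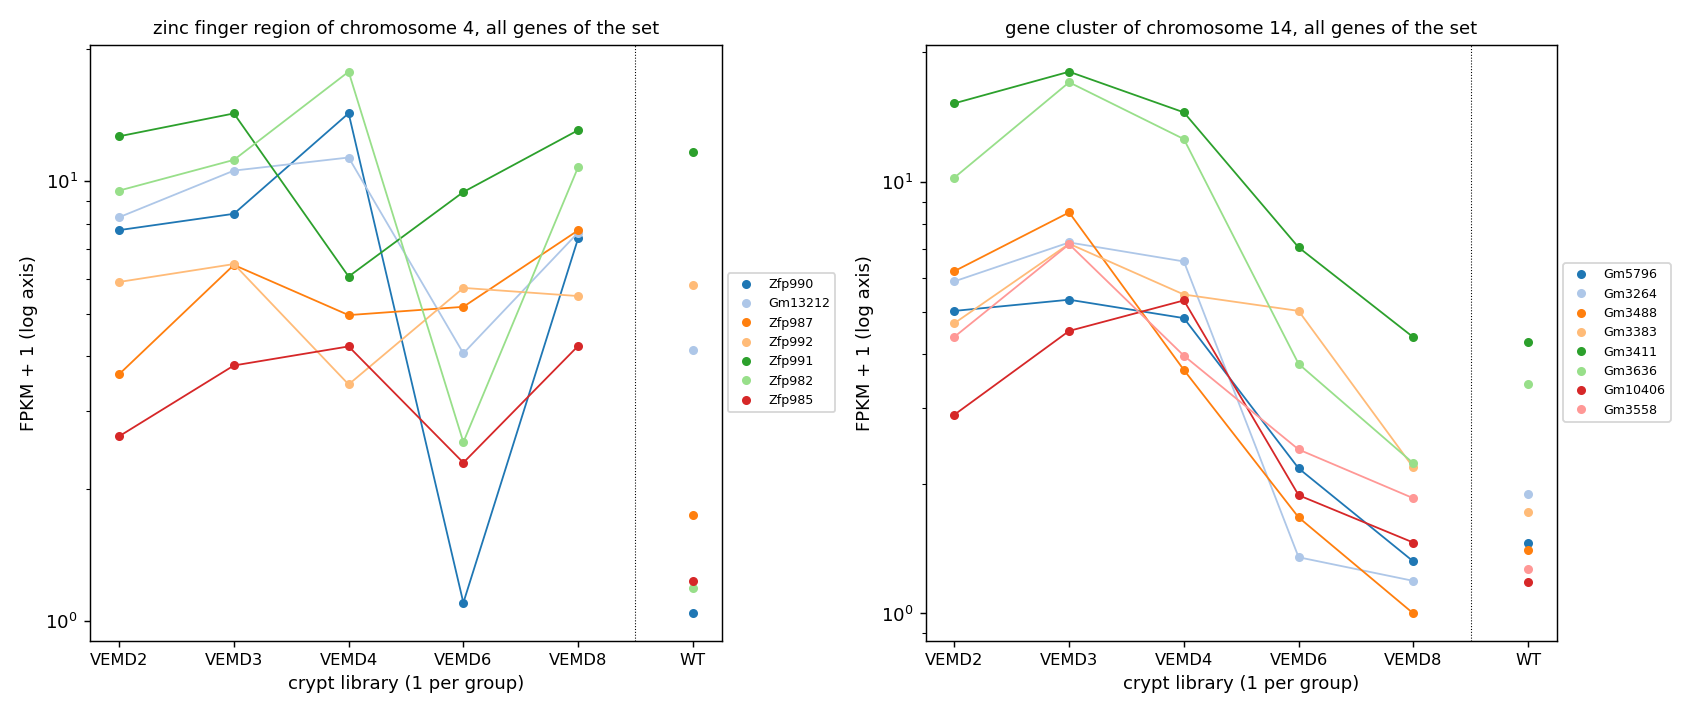
FPKM + 1 (log axis) of all 7 genes of the set in the zinc finger region of chromosome 4 (left) and all 8 in the cluster of chromosome 14 (right), in the 5 knockout crypt libraries and WT, with 1 point per library and lines joining knockout libraries. Zfp990 lies at 6.74 FPKM in VEMD2 and 0.04 FPKM in WT, while Zfp991 and Zfp992 lie close to WT in VEMD2.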

How the data were processed

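RNA of intestinal crypts was sequenced on a BGI-500 instrument, per the labels' protocols. The authors deposited FPKM, as the column names say (per the file headers), with 2 decimals. HISAT2, featureCounts and edgeR were used with GRCm38 and mm10, per the submitters' processing notes, which give no versions. The depth is unknown, because low values showed no clear steps of whole reads.

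Of 16958 genes with values, 10862 had a mean of at least 1 FPKM over 6 libraries. Log2 ratios were taken after 1 FPKM was added, and a gene was called at 2-fold. Symbols were looked up by identifier in RefSeq GRCm38.p6, which named 16916 genes, and promoters came from the same build. Shared 50-base stretches were counted in GENCODE M21 transcripts. Python 3.11.15, pandas 2.3.3 and numpy 2.4.6 were used.

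The members and 35 gene lists were chosen with earlier results of these data known. Named genes are Setdb1, the 20 highest and 20 lowest by ratio at a mean of at least 5 FPKM over VEMD2 and WT, the 10 largest gains and losses in FPKM, the 10 highest and lowest by the gap to the other libraries, and up to 4 members per list. Others, such as Lgr5, Olfm4, Ripk3 and Mlkl, were named with their values in view. Not all genes of the rule are reported. Alternatives changed the pseudocount, the filter and the scaling. The table of repeats and the stem cell samples were not analysed here.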

Additional observations from a re-analysis of the deposited data

How the results depend on the processing

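No paired analysis was possible because VEMD2 and WT are single libraries, and for the same reason none could be left out. The count of genes called moved with the pseudocount. With 0.1 FPKM added, 503 genes were higher and 341 lower, and with 5 FPKM added, 85 were higher and 140 lower, against 265 and 260 with 1 FPKM. VEMD2 stood above all other libraries in 8 genes at 0.1 FPKM and in 3 at 5 FPKM, against 5, and below them in 20 genes at 0.1 FPKM and in 6 at 5 FPKM, against 10. Rescaling VEMD2 by its median gene gave 230 higher and 288 lower genes. No log2 ratio of 145 named genes changed sign in any setting. Rescaling ended the call for Zfp809, Ephb3 and Reg4, at 0.98, 0.99 and 0.98. With 5 FPKM added 32 named genes lost the call. So did many list members, and with 5 FPKM added 19 of 39 counts of list members at 2-fold moved by over 1.5 times, among them necroptosis at 0 higher genes against 2, sensing at 0 against 1, germline at 0 against 1, fat absorption at 1 against 3, and cytokines at 0 against 2. No list median changed sign at that setting, and those of germline and enteroendocrine genes were 0.12 and 0.14, against 0.35 and 0.27. The germline median was 1.58 with 0.1 FPKM added. Without replicates, none of these differences can be told apart from variation between mice.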

Other observations

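Families of genes that share a symbol stem add to the picture of VEMD2 crypts. Nuclear genes of the respiratory chain lay below WT together. Of 45 Nduf genes of complex I in the set 42 were below WT with a median log2 ratio of -0.45, all 17 Atp5 genes of the ATP synthase with a median of -0.48, all 8 Uqcr genes of complex III with a median of -0.45, and 12 of 13 Cox genes of complex IV with a median of -0.61. In these 4 families only Cox7a1 reached 2-fold, at 63.5 FPKM in VEMD2 and 129 FPKM in WT. Mitochondrial ribosomal proteins did not share this size, with a median of -0.06 over 78 genes, and 75 of 76 cytosolic ribosomal protein genes were below WT with a median of -0.19. Over all genes, binned by the mean of VEMD2 and WT, the median was 0.25 under 1 FPKM and -0.15 at 100 FPKM or more, a binning chosen after the values were seen. The part of expression level in the family medians was not tested. Zinc finger genes named Zfp lay on the other side, with 208 of 269 above WT, against 58.6% of all genes, 9 higher, none lower and a median of 0.18.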
